A study of Mus musculus with 20 samples.

Results

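Followed here were 33 protein-coding genes of mitochondrial protein import and of the Chchd family, not all of whose members are import machinery. Their symbols begin with Timm, Tomm or Chchd and a digit, out of 30265 genes in each count table. 15 symbols begin with Timm, 10 with Tomm and 8 with Chchd, and every gene was placed by its known role in the outer membrane translocase (TOM, 10 genes), the presequence translocase of the inner membrane (TIM23, 6 genes), the carrier translocase with its small chaperones (TIM22 and small TIMs, 9 genes) or the Chchd family (8 genes). The rule uses symbols alone, but the family was selected on its fold changes in the embryo comparison, so its counts and medians there are a description. The study asks what the transcription factor Klf5, a zinc-finger protein of the Krüppel-like group, does in early mouse embryos and embryonic stem cells (ESCs). Single E4.5 embryos, late blastocysts cultured in KSOM with albumin, had been treated with an siRNA against Klf5 (6 embryos) or with a scramble siRNA (10 embryos), and 1 library was made per embryo. The labels write the embryos' strain as C57BL/5J, and per the series' design text the siRNA was injected. ESCs derived from C57BL/6J mice, grown with LIF on irradiated fibroblast feeders, overexpressed Klf5 (2 libraries) or green fluorescent protein (GFP, 2 libraries). The labels do not give the vector or the number of clones of the ESCs and do not call their replicates separate cultures, so p-values there reflect only how these libraries vary, and that variation may be technical.

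Nearly all mitochondrial proteins are made in the cytosol and imported. Receptors of the TOM complex (Tomm20, Tomm22, Tomm70a) bind precursors and pass them through the Tomm40 channel, after which TIM23 takes proteins with a cleavable presequence into the inner membrane or matrix and TIM22 inserts carrier proteins that the small TIM chaperones have escorted. Small cysteine-rich proteins of the intermembrane space, among them most Chchd proteins, are trapped there by oxidative folding on Chchd4, the mammalian MIA40. The blastocyst relies on mitochondrial respiration as its fluid-filled cavity forms and grows.

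Start regions are shown for the 4 genes with the smallest p in the embryo comparison that had one, since these carry the family's clearest differences. Each runs 5′ to 3′ on the gene's strand from 250 bases before the RefSeq start to 50 bases after it (RefSeq, GRCm38.p6, the assembly of mm10), and capitals mark any match, on either strand, to one of 4 motifs. The GC box was searched as GGGCGG. For the CACCC box the letters searched were CCACCC. The core of ETS-family sites was taken as CCGGAA, and the longer NRF1 motif is given by name. NRF1 and ETS-family factors are known regulators of nuclear genes for mitochondrial proteins, and Krüppel-like factors bind GC-rich and CACCC-type boxes. Timm17a lies at chr1:135313688-135313987 (minus strand), Tomm20 at chr8:126945872-126946171 (minus strand), Timm17b at chrX:7899086-7899385 (plus strand) and Timm8a2 at chr14:122034424-122034723 (plus strand).
Timm17a: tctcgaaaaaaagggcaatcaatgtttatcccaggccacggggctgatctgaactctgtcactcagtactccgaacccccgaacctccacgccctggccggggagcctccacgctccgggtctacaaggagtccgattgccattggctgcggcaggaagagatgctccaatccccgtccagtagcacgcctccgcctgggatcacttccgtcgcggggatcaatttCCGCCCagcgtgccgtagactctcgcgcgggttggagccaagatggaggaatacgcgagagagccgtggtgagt
Tomm20: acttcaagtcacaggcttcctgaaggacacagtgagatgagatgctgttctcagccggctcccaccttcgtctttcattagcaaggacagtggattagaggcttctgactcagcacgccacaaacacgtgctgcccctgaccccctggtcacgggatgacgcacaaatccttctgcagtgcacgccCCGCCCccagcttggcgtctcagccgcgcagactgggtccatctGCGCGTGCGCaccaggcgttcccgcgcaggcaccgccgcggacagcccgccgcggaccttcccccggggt
Timm17b: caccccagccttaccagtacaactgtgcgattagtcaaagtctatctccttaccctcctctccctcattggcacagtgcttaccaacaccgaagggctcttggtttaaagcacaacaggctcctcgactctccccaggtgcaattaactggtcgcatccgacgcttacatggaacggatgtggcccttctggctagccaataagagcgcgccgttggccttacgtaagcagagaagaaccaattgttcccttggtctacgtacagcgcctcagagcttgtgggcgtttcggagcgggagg
Timm8a2: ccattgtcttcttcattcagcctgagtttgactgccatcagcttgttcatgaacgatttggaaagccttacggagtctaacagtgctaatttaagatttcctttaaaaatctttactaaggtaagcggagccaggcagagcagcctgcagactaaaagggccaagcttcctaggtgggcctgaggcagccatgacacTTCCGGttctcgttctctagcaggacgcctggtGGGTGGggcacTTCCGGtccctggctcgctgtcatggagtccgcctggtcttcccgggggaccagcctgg
The 4 start regions do not share a motif: Timm17a holds 1 GC box, Tomm20 a GC box and an NRF1 match, Timm8a2 a CACCC box and 2 ETS cores, and Timm17b none of the 4 motifs.

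Start regions were found for 28 of the 33 genes, and for 16298 protein-coding genes in all. An ETS core stood in 14 of the 28 (50%), against 21.7% of all protein-coding genes. An NRF1 match stood in 3 (10.7%, against 7.51%), a CACCC box in 12 (42.9%, against 37.2%) and a GC box in 11 (39.3%, against 51.5%). The ETS core was in 4 of the 11 start regions of genes that rose in the Klf5 siRNA embryos and in 10 of the 17 of genes that did not. A CACCC box was in 4 of the 11 and 8 of the 17, a GC box in 2 of the 11 and 9 of the 17, and an NRF1 match in 1 of the 11 and 2 of the 17. These are matches of letters, with no test.

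Klf5 transcript was counted first, as a check of the labels. In CPM, the usual unit of counts relative to the scaled library size, Klf5 siRNA embryos 1 to 6 held 543, 111, 195, 80.8, 117 and 292, against 382 to 592 CPM in the scramble embryos. Klf5 siRNA embryo 1 lay within the scramble range and the other 5 embryos lay below it. The fitted difference was -1.07 on the log2 scale (adjusted p = 0.0273), and it lost the threshold in several alternatives given in the closing section. In ESCs overexpressing Klf5 the transcript stood at 942 and 882 CPM, against 80.5 and 70.8 CPM in GFP cells (log2 fold change 3.59, adjusted p = 0.000323). Embryo libraries held about 14701500 to 24939600 counts and ESC libraries about 26775400 to 37482600, so that 3 counts, the least taken as detectable, were 0.120 to 0.204 CPM in embryos and 0.0800 to 0.112 CPM in ESCs. Amplified reads are not independent molecules, so such floors cover counting error only. Every Klf5 siRNA library carries a higher library number in the labels than every scramble library, so that the siRNA used and the order of the libraries cannot be told apart. The scramble numbers run without a gap, whereas some numbers are missing among the Klf5 siRNA libraries.

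The scramble embryos were not alike. Scramble embryos 5 and 6 held the fewest counts from the mitochondrial genome of their group (4.34% and 5.48%) and stood apart in the family: both lay below the other 8 in 5 genes (Chchd1, Timm8b, Timm9, Tomm5, Tomm7) and above the other 8 in 6 (Chchd4, Timm23, Timm44, Timm50, Tomm40, Tomm40l). Without both, Timm50 passed the test, Tomm40 and Tomm40l lay further above 0, at 0.77 (adjusted p = 0.0659) and 0.91 (adjusted p = 0.215), and Timm23 reached 1.21 (adjusted p = 0.00369). The 5 genes that were low in them came closer to 0, with 0.53 for Tomm5, 0.41 for Timm8b, 0.40 for Chchd1, 0.11 for Timm9 and 0.07 for Tomm7, none of which passed with or without them.

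Import and Chchd genes were more often higher than lower in Klf5 siRNA embryos relative to scramble embryos. Of the 33 genes, all of which passed the filter on low counts, 14 rose, none fell and 19 did not pass the test (edgeR's quasi-likelihood test, Benjamini-Hochberg adjusted p under 0.05 over 12385 genes). Of all genes tested 12.0% rose, 7.74% fell and 19.8% were called in either direction. The share that rose was larger among short transcripts, as given further on. The median log2 fold change of the 33 genes was 0.78, against -0.01 for all genes tested, with a range from -0.996 for Timm29 to 2.55 for Tomm20l. 29 of the 33 lay above 0, against 49.8% of all genes. An unadjusted p under 0.05 was found for 24 of the 33, and for 4112 of all 12385 genes tested. In 7 genes every Klf5 siRNA embryo lay above every scramble embryo, an arrangement seen in 2.91% of all genes, and no gene showed the opposite arrangement, seen in 1.91%. The genes that rose were Timm17a, Timm17b, Timm21 and Timm23 of TIM23, Tomm20, Tomm22 and Tomm6 of TOM, Timm8a2, Timm13 and Timm22 of the carrier pathway, and Chchd2, Chchd5, Chchd7 and Chchd10.

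How many rose depends on what each library is scaled to. Scaling factors were 0.760 to 0.992 in Klf5 siRNA embryos and 0.879 to 1.33 in scramble embryos. With total counts alone the median of all genes was -0.43, a shift of -0.42, and the calls over all genes changed to 745 higher and 2182 lower, beside 1489 higher and 958 lower with scaling factors. The family then had 9 genes higher and 4 lower (Timm29, Timm44, Tomm34 and Tomm70a), with a median of 0.36, which is 0.79 above the median of all genes, the same distance as with scaling factors (0.79). The 9 were all among the 14. Chchd10, Chchd7, Timm22, Timm23 and Tomm22 no longer passed, and Chchd3, Timm9, Tomm40, Tomm40l and Tomm7, none of which passed the test in either setting, changed from above to below 0. In a bulk library of a whole embryo, fewer cells of a type and less RNA per cell cannot be told apart.

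**Figure D1:**
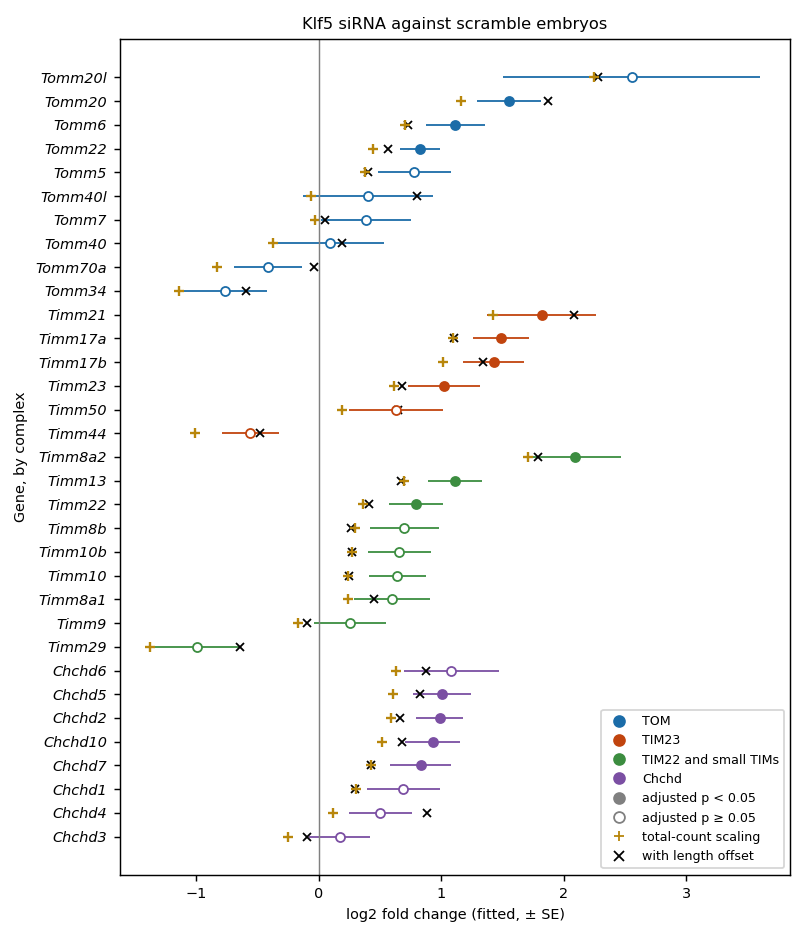
Fitted log2 fold change of each of the 33 genes in Klf5 siRNA over scramble embryos (x axis, with its standard error) by complex (y axis), where filled points passed an adjusted p of 0.05 and crosses and plus signs give the same value with a length offset and with total-count scaling. The 14 filled points lie between 0.79 and 2.09, and with total-count scaling all 14 stay above 0 while Chchd3, Timm9, Tomm40, Tomm40l and Tomm7 move below 0.

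In the TOM complex, 3 of 10 genes rose and none fell, with a median log2 fold change of 0.59. Tomm20 (chr8:126930667-126945844, minus strand, ENSMUSG00000093904), the receptor for presequences, ran from 286 through a median of 411 to 898 CPM in Klf5 siRNA embryos, against 126, 166 and 259 CPM in scramble embryos (lowest, median and highest in each). The groups did not overlap, and the fitted log2 fold change was 1.55 ± 0.26 (SE, adjusted p = 0.000488). Tomm22 (chr15:79670861-79673400, plus strand), the central receptor that also holds the complex together, was among the steadiest genes of the family. It spanned 333, 344 and 475 CPM in Klf5 siRNA embryos, against 174, 204 and 263 CPM in scramble embryos, again with no overlap (0.83 ± 0.16, adjusted p = 0.0017). Tomm6 (chr17:47686646-47688386, minus strand), a small subunit that stabilises the complex, lay at 232, 271 and 481 CPM in Klf5 siRNA embryos, against 72.3, 131 and 253 CPM in scramble embryos. Only scramble embryo 10, at 253 CPM, reached into the Klf5 siRNA range (1.11 ± 0.24, adjusted p = 0.00301).

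The channel and the third receptor did not pass the test. Tomm40, the pore of the complex, averaged 68.0 ± 31.8 CPM in Klf5 siRNA embryos and 63.7 ± 54.2 CPM in scramble embryos (SD, log2 fold change 0.09, adjusted p = 0.907), and scramble embryos 5 and 6 were its highest libraries at 165 CPM each. Its difference of nearly 0 rests on those libraries, since without them it was 0.77 (adjusted p = 0.0659). Tomm70a, the receptor for carrier precursors, averaged 128 ± 71.1 CPM in Klf5 siRNA embryos and 171 ± 45.2 CPM in scramble embryos (-0.42, adjusted p = 0.317). Tomm5, a small subunit and the most abundant TOM transcript per length in scramble embryos, spanned 419, 752 and 1930 CPM in Klf5 siRNA embryos, against 231, 525 and 726 CPM in scramble embryos (0.78, adjusted p = 0.0712), with its top value in Klf5 siRNA embryo 2. Tomm7, the third small subunit, averaged 681 ± 309 CPM in Klf5 siRNA embryos and 522 ± 243 CPM in scramble embryos (0.38, adjusted p = 0.502). Tomm34, a cytosolic co-chaperone of precursor delivery, averaged 12.0 ± 8.53 CPM in Klf5 siRNA embryos and 20.4 ± 6.14 CPM in scramble embryos (-0.77, adjusted p = 0.121). Without Klf5 siRNA embryo 3, where it stood at 29.1 CPM, Tomm34 reached -1.29 (adjusted p = 0.00676). Tomm40l and Tomm20l, the less abundant paralogs of Tomm40 and Tomm20, differed by 0.40 and 2.55 (adjusted p = 0.638 and 0.0928). Tomm20l counts were low, at 0 to 11.6 CPM in Klf5 siRNA embryos and 0 to 1.75 CPM in scramble embryos.

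TIM23 was the complex with the largest share of rising genes, 4 of 6, and a median log2 fold change of 1.22. It did not lead with the length offset described further on, where 3 of 6 rose (median 0.89), beside 4 of 8 in the Chchd family. Timm17a and Timm17b are alternative versions of the subunit that lines the protein path beside Timm23, and both rose. Timm17a (chr1:135295213-135313778, minus strand, ENSMUSG00000062580) had the smallest p of the family. It lay at 386, 638 and 1107 CPM in Klf5 siRNA embryos, against 130, 251 and 329 CPM in scramble embryos, with no overlap (1.49 ± 0.23, adjusted p = 0.000254). Timm17b (chrX:7899357-7908351, plus strand) spanned 219, 258 and 393 CPM in Klf5 siRNA embryos, against 50.3, 88.2 and 174 CPM in scramble embryos, also with no overlap (1.43 ± 0.25, adjusted p = 0.000673).

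Timm23 (chr14:32180162-32201898, minus strand), the channel subunit and the most abundant TIM23 transcript per length, held 1321, 1748, 3272, 1417, 846 and 1586 CPM in Klf5 siRNA embryos 1 to 6. In scramble embryos its lowest, median and highest levels were 436, 738 and 1427 CPM, so that the groups overlapped. The difference was 1.02 ± 0.29 (adjusted p = 0.0182), and without Klf5 siRNA embryo 3 it was 0.69 (adjusted p = 0.0841). Timm21 (chr18:84946191-84951524, minus strand), which links TIM23 to TOM and to the respiratory chain, was scarce at 5.28, 11.3 and 48.6 CPM in Klf5 siRNA embryos and 1.97, 4.67 and 8.55 CPM in scramble embryos (1.82 ± 0.44, adjusted p = 0.00715). Its top value was Klf5 siRNA embryo 5 alone, without which the difference was 1.06 (adjusted p = 0.0726). The other two subunits did not pass: Timm50, the presequence receptor of the inner membrane, differed by 0.63 (adjusted p = 0.267) and Timm44, which anchors the import motor, by -0.56 (adjusted p = 0.0963). Without scramble embryos 5 and 6, which held 257 and 250.1 CPM of Timm50 against 50.5 to 120 CPM in the other 8, Timm50 reached 1.11 (adjusted p = 0.0138).

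Among the 9 genes of TIM22 and the small TIMs, 3 rose, with a median log2 fold change of 0.66, and with the length offset described further on 2 rose, with a median of 0.27. Timm8a2 (chr14:122034674-122038420, plus strand), a paralog of the small chaperone Timm8a1, showed the largest difference among the genes that passed. It lay at 21.9, 34.1 and 69.4 CPM in Klf5 siRNA embryos, against 1.55, 8.16 and 18.3 CPM in scramble embryos, with no overlap (2.09 ± 0.38, adjusted p = 0.000872). Timm13 (chr10:80899450-80900969, minus strand), the partner of Timm8 proteins in one of the small TIM hexamers, spanned 504, 655 and 801 CPM in Klf5 siRNA embryos, against 189, 273 and 480 CPM in scramble embryos, with no overlap (1.11 ± 0.22, adjusted p = 0.0018). Timm22 (chr11:76406952-76416292, plus strand), the channel of the carrier translocase, averaged 200.4 ± 52.2 CPM in Klf5 siRNA embryos and 116 ± 28.1 CPM in scramble embryos, and the groups overlapped (0.79 ± 0.22, adjusted p = 0.0147).

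The remaining small chaperones lay above 0 without passing the test. Timm8b, the most abundant of them per length, spanned 318, 545 and 666 CPM in Klf5 siRNA embryos, against 98.5, 348 and 518 CPM in scramble embryos (0.70, adjusted p = 0.0901), its lowest values being scramble embryos 5 and 6. Timm10, which pairs with Timm9, differed by 0.64 (adjusted p = 0.0576), Timm10b, which docks the hexamer on TIM22, by 0.66 (adjusted p = 0.0788), and Timm9 by 0.25 (adjusted p = 0.587). Timm29, the animal-specific subunit of TIM22, had the lowest value of the family. It averaged 5.10 ± 2.71 CPM in Klf5 siRNA embryos and 10.2 ± 3.03 CPM in scramble embryos (-0.996, adjusted p = 0.0545). It passed without Klf5 siRNA embryo 3 (-1.35, adjusted p = 0.0146) or without scramble embryo 1 (-1.07, adjusted p = 0.0426).

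In the Chchd family 4 of 8 genes rose, all 8 lay above 0 and the median was 0.88. Chchd2 (chr5:129881156-129887470, minus strand), the most abundant transcript of the whole family, whose human counterpart is mutated in some inherited Parkinson disease, spanned 2054, 2225 and 2945 CPM in Klf5 siRNA embryos, against 778, 1192 and 1503 CPM in scramble embryos. The groups did not overlap (0.99 ± 0.19, adjusted p = 0.00135). Chchd10 (chr10:75933130-75937747, plus strand), its paralog and binding partner, averaged 441 ± 138 CPM in Klf5 siRNA embryos and 232 ± 63.3 CPM in scramble embryos (0.93 ± 0.22, adjusted p = 0.00634). Chchd5 (chr2:129129700-129134134, plus strand) averaged 346 ± 75.9 CPM in Klf5 siRNA embryos and 172 ± 59.0 CPM in scramble embryos (1.01 ± 0.23, adjusted p = 0.0053), and Chchd7 (chr4:3938888-3951046, plus strand) 53.8 ± 9.72 CPM in Klf5 siRNA embryos and 30.2 ± 10.7 CPM in scramble embryos (0.83 ± 0.25, adjusted p = 0.0239). Chchd7 no longer passed without Klf5 siRNA embryo 6 (adjusted p = 0.0554) or without scramble embryos 5 and 6 (0.65, adjusted p = 0.0508). Chchd4, the oxidoreductase on which such proteins fold, differed by 0.50 (adjusted p = 0.177). Chchd3 and Chchd6, subunits of the cristae-organising MICOS complex, differed by 0.17 (adjusted p = 0.674) and 1.08 (adjusted p = 0.0562), and Chchd6 passed without scramble embryos 5 and 6 (1.29, adjusted p = 0.0218). Chchd1, a subunit of the mitochondrial ribosome, averaged 412 ± 130 CPM in Klf5 siRNA embryos and 255 ± 98.3 CPM in scramble embryos (0.69, adjusted p = 0.11).

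**Figure D2:**
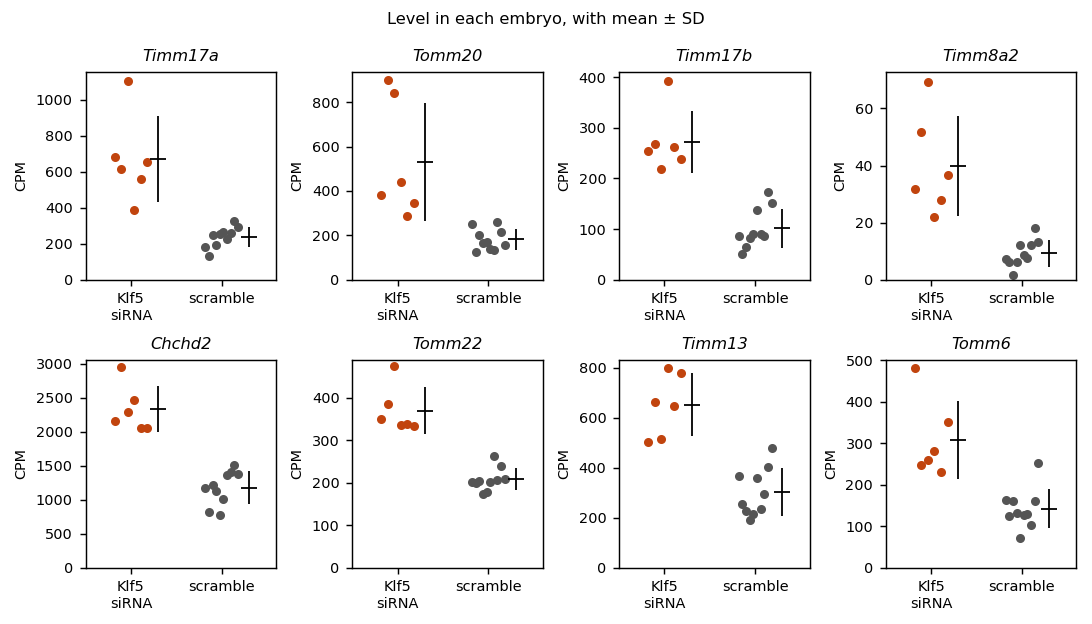
Level of the 8 genes with the smallest p in each Klf5 siRNA embryo (left) and each scramble embryo (right), in CPM on a y axis that starts at 0, with the mean and SD of each group beside its points. The groups do not overlap in 7 of the 8 genes, and in Tomm6 scramble embryo 10 at 253 CPM lies above the lowest Klf5 siRNA embryo at 232 CPM.

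The difference was present in every Klf5 siRNA embryo, including the one whose Klf5 transcript stood at the scramble level. The 14 genes were called on these same embryos, so their counts per embryo are a description. In all 6 embryos each of the 14 genes lay above its scramble mean. Above every scramble embryo lay 12, 11, 13, 11, 10 and 13 of the 14 genes in Klf5 siRNA embryos 1 to 6. The family's median relative to the scramble mean, in log2 CPM, was 0.75, 1.00, 0.88, 0.86, 0.70 and 0.96 in the same embryos, and -0.19 to 0.35 in the scramble embryos. Klf5 siRNA embryo 1, at 543 CPM of Klf5, was thus at 0.75. Without it, 16 genes of the family were called, 15 higher and 1 (Tomm70a) lower, and over all genes 1403 were higher and 995 lower. The family took up 0.804 to 1.29% of all counts in Klf5 siRNA embryos and 0.596 to 0.817% in scramble embryos, and these ranges overlap.

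Other measures of the libraries moved with the siRNA, and their part in the family's difference was not tested. Transcripts of the mitochondrial genome made up 2.45 to 10.3% of counts in Klf5 siRNA embryos and 4.34 to 18.5% in scramble embryos, while ribosomal protein transcripts made up 7.46 to 13.8% in Klf5 siRNA embryos and 3.67 to 9.08% in scramble embryos. The low end of both scramble ranges was scramble embryo 5. With the mitochondrial genome left out of the library sizes, all 14 genes still rose, Timm29 fell (-1.06, adjusted p = 0.0445) and the median was 0.69. Of 9 trophectoderm markers 6 fell and none rose, and their summed level was 199 to 2435 CPM in Klf5 siRNA embryos and 2147 to 8499 CPM in scramble embryos. Scramble embryos 5 and 6 had the highest sums (7759 and 8499 CPM), followed by scramble embryo 2 at 3917 CPM. The trophectoderm sum was mostly Krt18 and Krt8, with scramble means of 2067 and 1497 CPM. Of 6 primitive endoderm markers 2 fell and none rose, summing to 12.8 to 94.5 CPM in Klf5 siRNA embryos and 58.1 to 223 CPM in scramble embryos. None of 6 pluripotency markers passed, and their median log2 fold change was -0.01. Their sums, 6079 to 16816 CPM in Klf5 siRNA embryos and 3521 to 11588 CPM in scramble embryos, are nearly all Dppa5a (0.48, adjusted p = 0.233), while Pou5f1 (1.12) and Nanog (0.89) lay above 0 and Sox2 (-1.09), Esrrb (-1.07) and Zfp42 (-0.51) below. Of 8 fibroblast markers 2 were tested: Thy1 rose, at 6.11 ± 8.11 CPM in Klf5 siRNA embryos and 0.311 ± 0.476 CPM in scramble embryos, Fn1 did not pass, and Lum was at 0 in every embryo. Klf5 siRNA embryos 1 and 6 had trophectoderm sums of 2321 and 2435 CPM, within the scramble range but below the scramble median of 3158 CPM. Their family medians were 0.75 and 0.96, and Klf5 siRNA embryo 2, with 10.3% mitochondrial counts, was at 1.00. No link between these measures was tested.

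**Figure D3:**
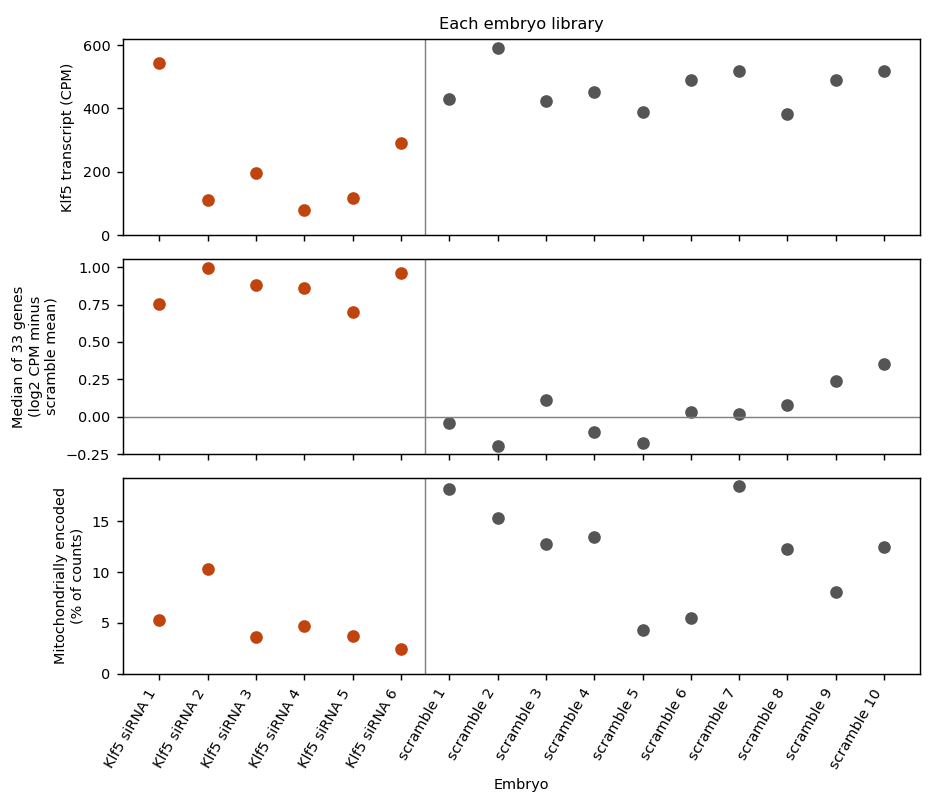
Klf5 transcript (CPM, top), median log2 CPM of the 33 genes relative to the scramble mean (middle) and percent of counts from the mitochondrial genome (bottom) in each embryo, Klf5 siRNA embryos left of the line and scramble embryos right of it. All 6 Klf5 siRNA embryos lie above all 10 scramble embryos in the middle panel, and Klf5 siRNA embryo 1 lies among the scramble embryos in the top panel.

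Import and Chchd genes have short transcripts, and in these embryos short transcripts as a class were higher after Klf5 siRNA. The family's median transcript length was 1081.5 nt, against 2005.5 nt for all genes tested, and 10 of the 33 genes were in the shortest of 10 equal classes of length. The median log2 fold change of all genes was 0.54 in that class and -0.28 in the longest. Of all genes, 23.6% were called higher in the shortest class, beside 4.72% in the longest. In the second shortest class, which held 5 of the 33 genes, 25.8% of all genes were called higher. Across genes, the rank correlation of length with fold change was -0.40 over the 33 genes and -0.27 over 12292 genes of known length, where genes are not independent replicates. Among transcripts under 1000 nt the 15 family genes had a median of 0.83, against 0.50 for all genes of that length, and the 18 longer family genes 0.55, against -0.12. With an offset that takes out each library's trend with length, 12 family genes rose and none fell, and the family median was 0.57. Over all genes 1492 rose and 752 fell, beside 1489 and 958 without the offset, and their median shifted by 0.11 to 0.10. Of the 14 genes 11 remained, while Timm22, Timm23 and Chchd7 no longer passed, Chchd4 passed, and Chchd3 and Timm9 changed sign without passing in either setting. Tomm20 and Timm21, of 2680 and 2418 nt, were higher with the offset (1.87 and 2.08).

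**Figure D4:**
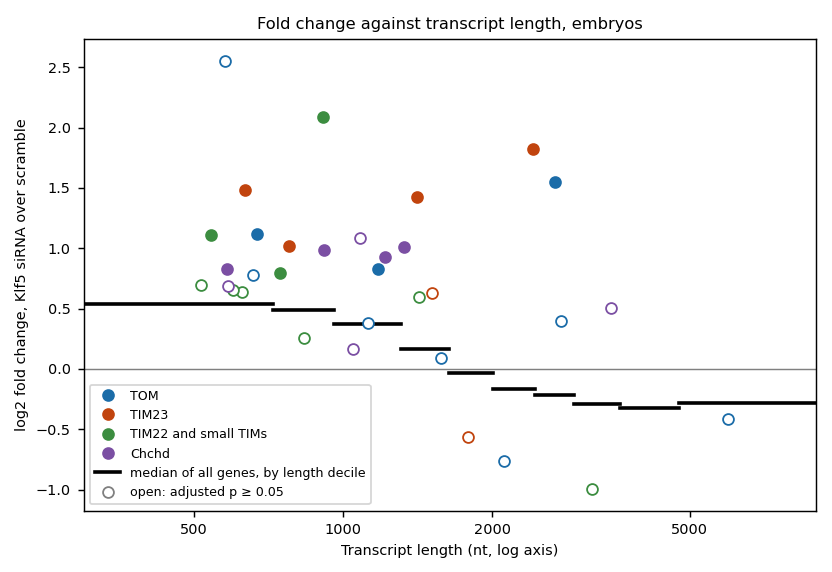
Log2 fold change of each of the 33 genes (points, filled where the adjusted p was under 0.05) against transcript length (nt, log axis), with the median of all genes in each of 10 classes of length as a black bar, Klf5 siRNA over scramble embryos. The bars lie at 0.54 in the shortest class and -0.28 in the longest, and all 14 filled points lie above the bar of their length.

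Some counts are shared with near-identical copies elsewhere in the genome. 7 of the 33 genes had 15 copies of at least 95% identity. Timm8a1, whose human counterpart is mutated in deafness-dystonia syndrome, shares 612 nt at 100% identity with the pseudogene Gm9797, which took 31.6% of their joint counts in embryos and 71.0% in ESCs, so the level of Timm8a1 alone is uncertain. On its own Timm8a1 differed by 0.60 in embryos (adjusted p = 0.19), and with the copy's counts added by 1.18 (adjusted p = 0.00316). For Tomm20 the copies took 1.32% of the counts in embryos and 23.7% in ESCs, mostly on Gm14494. Chchd2 lost 0.0523% in embryos and 2.33% in ESCs, and Timm17a, Timm23, Tomm6 and Tomm7 under 0.35% in both. Timm9 and Tomm20l overlap at their ends on opposite strands of chr12, and no source used here says whether counting took account of strand, so their reads may not be separable.

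Several family genes share a start region with a neighbour. 7 of the 33 (21.2%) have another protein-coding gene that starts within 1000 nt on the opposite strand, facing away, against 6.77% of 21446 protein-coding genes. Timm23 starts 51 nt from Parg, which differed by -0.33 in Klf5 siRNA embryos (adjusted p = 0.383), beside 1.02 for Timm23. Timm17b starts 88 nt from Pqbp1 (0.58, adjusted p = 0.171), Timm8b 98 nt from Sdhd (0.34, adjusted p = 0.294) and Tomm6 644 nt from Frs3 (-0.36, adjusted p = 0.674). None of the 6 neighbours tested, which also include Tmem43 beside Chchd4 and 2700049A03Rik beside Timm9, passed the test, whereas Timm23, Timm17b and Tomm6 did. The difference between neighbours was not tested.

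Partners of the import machinery moved in both directions. For comparison with each list, 12.0% of all genes tested rose and 7.74% fell. Of 17 genes listed for the import motor, presequence processing and related inner membrane and matrix factors, 4 rose and 3 fell, with a median of -0.02. Pam16, which regulates the motor, rose by 1.34 (adjusted p = 0.00167), and its nucleotide exchange factor Grpel1 by 1.20 (adjusted p = 0.00877), while Hspa9, the motor's Hsp70, fell by 0.95 (adjusted p = 0.00602), and Hspd1, the matrix chaperonin, fell by 0.92 (adjusted p = 0.00636). Of 16 genes of outer membrane assembly and cristae 3 rose and 3 fell, with a median of 0.25. There Mtch2, an outer membrane insertase, rose by 1.15 (adjusted p = 0.00186) and Mtx1 of the sorting machinery by 1.36 (adjusted p = 0.00504), Apool of MICOS rose by 1.11 (adjusted p = 0.00725), and Opa1, the inner membrane fusion GTPase, fell by 1.19 (adjusted p = 0.0109).

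Of 18 genes for oxidative folding in the intermembrane space and its twin-cysteine substrates, 9 rose and none fell, with a median of 0.76. Gfer, the oxidase that recharges Chchd4, averaged 99.4 ± 32.1 CPM in Klf5 siRNA embryos and 31.9 ± 9.47 CPM in scramble embryos, and rose by 1.64 (adjusted p = 0.00022). Cox19, a copper-handling assembly factor of cytochrome oxidase, rose by 1.51 (adjusted p = 0.000226), Ndufs5 of complex I by 1.21 (adjusted p = 0.00478) and Coa4 by 1.04 (adjusted p = 0.00634). Of 11 cytosolic chaperones of precursors tested, Naca (1.07, adjusted p = 0.000398) and Btf3 (1.10, adjusted p = 0.000429), the pair that binds nascent chains at the ribosome, rose and none fell. With the length offset 1492 of all 12385 genes tested rose and 752 fell. The intermembrane space list then had 6 higher and none lower, with a median of 0.41. The motor and processing list had 4 higher and 1 lower with the offset, and the outer membrane and cristae list 5 higher and 2 lower. The cytosolic chaperones had 2 higher and 1 lower, Hsp90ab1 (-1.11, adjusted p = 0.0106, beside -0.65 and 0.0883 without the offset). Hspa9 (-0.60, adjusted p = 0.062) and Opa1 (-0.83, adjusted p = 0.0515) did not pass.

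Klf5 overexpression in ESCs changed none of the family past the test. Of 32 genes tested (Tomm20l was too low), edgeR called none at an adjusted p under 0.05, where 1.67% of all 15968 genes rose, 1.11% fell and 2.78% were called in either direction. 5 of the 32 had an unadjusted p under 0.05, as did 3710 of all 15968 genes. DESeq2 called 1 family gene, Tomm20 (-0.42, adjusted p = 0.035), and 1435 genes in all. The median log2 fold change was 0.08, against -0.00 for all genes, with 19 above and 13 below 0, where 49.6% of all genes lay above 0, and a range from -0.43 to 0.50. In 13 genes both Klf5 libraries lay above both GFP libraries and in 7 below, arrangements seen in 28.9% and 27.4% of all genes.

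Tomm20 held 92.7 and 101 CPM in Klf5 ESCs, against 122 and 139 CPM in GFP ESCs. All Klf5 values were lower, with a fitted difference of -0.43 ± 0.12 (SE, adjusted p = 0.0929). Timm22 stood at 23.0 and 22.0 CPM in Klf5 ESCs and 16.7 and 17.8 CPM in GFP ESCs (0.38 ± 0.14, adjusted p = 0.157), and Chchd10 at 653 and 881 CPM in Klf5 ESCs and 516 and 617 CPM in GFP ESCs (0.44 ± 0.18, adjusted p = 0.196). Timm8a1, uncertain beside its copy, differed by 0.50 ± 0.20 (adjusted p = 0.193) and Tomm7 by -0.41 ± 0.17 (adjusted p = 0.205). Chchd2, the most abundant, lay at 805 and 854 CPM in Klf5 ESCs and 688 and 752 CPM in GFP ESCs (0.20 ± 0.12, adjusted p = 0.355). Timm23 lay at 128 and 134 CPM in Klf5 ESCs and 109 and 122 CPM in GFP ESCs (0.18 ± 0.11, adjusted p = 0.367), Tomm6 at 249 and 268 CPM in Klf5 ESCs and 293 and 269 CPM in GFP ESCs (-0.12 ± 0.11, adjusted p = 0.561), and Timm13 at 47.7 and 56.1 CPM in Klf5 ESCs and 51.4 and 52.6 CPM in GFP ESCs (-0.00 ± 0.13, adjusted p = 0.995). A p that misses the threshold with 2 libraries a group does not show that levels were equal.

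The 14 genes that rose in Klf5 siRNA embryos lay on both sides of 0 in Klf5 ESCs, 8 above and 6 below. Side by side, Timm17a differed by -0.30 ± 0.15 in Klf5 ESCs (adjusted p = 0.271) and 1.49 ± 0.23 in Klf5 siRNA embryos, Tomm20 by -0.43 and 1.55, Timm17b by 0.25 and 1.43, and Tomm22 by -0.15 and 0.83. The tables come from different library kits and were scaled separately, and no test of the difference between experiments was made. The partner lists in ESCs held 1 called gene, where 2.78% of all genes were called. It was Dnajc11 of the cristae complex, which rose in Klf5 ESCs (0.75, adjusted p = 0.0413) and fell in Klf5 siRNA embryos (-1.03, adjusted p = 0.0367). In the other lists the smallest p belonged to Tmem70 in the motor and processing list (0.48, adjusted p = 0.152), Cox19 in the intermembrane space (-0.70, adjusted p = 0.0811) and Btf3 among the cytosolic chaperones (-0.40, adjusted p = 0.0987). In Klf5 siRNA embryos Tmem70 differed by -0.01, Cox19 by 1.51 and Btf3 by 1.10. Markers of other cell types moved with Klf5 overexpression, and their part in the ESC values was not tested. Of 7 fibroblast markers tested, Col1a2 rose, at 338 ± 21.3 CPM in Klf5 ESCs and 197 ± 22.8 CPM in GFP ESCs (0.78, adjusted p = 0.0347). Col1a1 (0.66, adjusted p = 0.0704), Col3a1 (0.88, adjusted p = 0.0667), Thy1 (0.39, adjusted p = 0.1255) and Postn (0.38, adjusted p = 0.362) lay above 0 without passing. Dcn lay below 0 (-0.49, adjusted p = 0.316). Whether these transcripts came from feeders or from the ESCs was not tested. The summed level, 4091 and 3478 CPM in Klf5 ESCs and 3475 and 3514 CPM in GFP ESCs, is mostly Fn1 (-0.07, adjusted p = 0.835). Of 6 primitive endoderm markers Sox7 rose (3.37, adjusted p = 0.0285), the median was 2.22, and the sums were 77.6 and 189 CPM in Klf5 ESCs and 38.3 and 31.2 CPM in GFP ESCs. None of 9 trophectoderm markers passed, and they summed to 313 and 673 CPM in Klf5 ESCs and 1877 and 896 CPM in GFP ESCs.

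**Figure D5:**
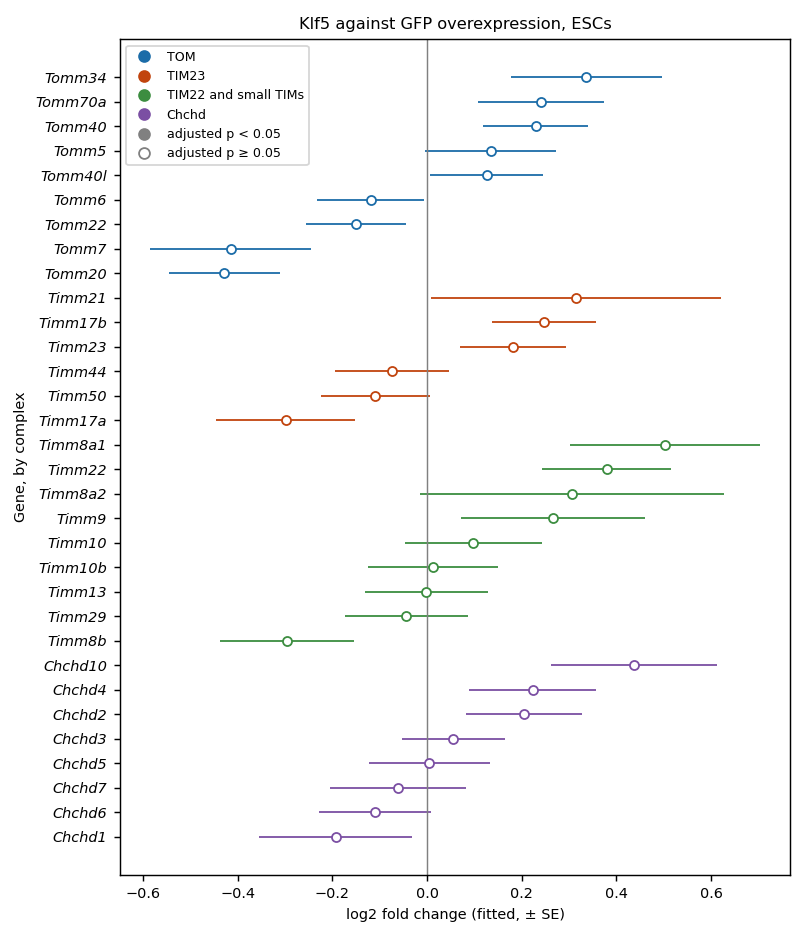
Fitted log2 fold change of each of the 32 tested genes in Klf5 over GFP ESCs (x axis, with its standard error) by complex (y axis), all drawn open because no adjusted p was under 0.05. The points lie between -0.43 (Tomm20) and 0.50 (Timm8a1) on both sides of 0.

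Levels within the family differed by orders of magnitude in control samples. Per kilobase of transcript, Chchd2 was highest in scramble embryos at 1285 ± 268 CPM per kb (SD, n = 10), followed by Timm23 (1077 ± 426) and Tomm5 (781 ± 249), whose spreads overlap, and then by Timm8b (617 ± 234) and Timm13 (557 ± 177). Tomm20l (1.09 ± 1.21), Tomm40l (1.82 ± 1.32) and Timm21 (1.89 ± 0.80 CPM per kb) were lowest. In GFP ESCs Chchd2 was again highest (787 ± 49.1 CPM per kb, n = 2), followed by Chchd10 (467 ± 58.8), Tomm6 (419 ± 25.3), Tomm40 (155 ± 9.45) and Timm23 (148 ± 11.9). Because the tables were scaled separately, these are orders within each experiment and no level was tested between them.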

How the data were processed

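Polyadenylated RNA was measured in 4 ESC libraries and 16 single-embryo libraries of mouse. Per the labels' protocols, the TruSeq RNA v2 kit was used for ESCs and SMARTseq-V4 cDNA for embryos. The authors deposited estimated counts per Ensembl gene; the submitters' processing notes name kallisto 0.46 and the build mm10, while the annotation release and the step from transcripts to genes are not given in the sources used here. Symbols, positions and lengths came from GENCODE M21 (29831 of 30265 genes matched, 434 not), and start regions from RefSeq. No column of either count table was left out.

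Estimated counts were rounded, a change of at most 0.000756% of a library's total. Genes were filtered with filterByExpr (lowest count 10) of edgeR 4.0.16 in R 4.3.3, given TMM scaling factors and compared by the package's robust quasi-likelihood test, Klf5 siRNA against scramble (6 against 10) and Klf5 against GFP (2 against 2, 2 residual degrees of freedom), with Benjamini-Hochberg adjustment over all genes and a threshold of 0.05. The common coefficient of variation was 0.739 in embryos and 0.163 in ESCs. Simulated counts returned the fold changes they were made with, but in the design of 2 against 2 the share of false calls was above the threshold, so single calls in ESCs are less certain than their adjusted p. CPM use scaled library sizes, per-embryo log2 values a prior count of 2, and length is the median transcript of a gene. Copies were found with BLAST 2.17.0 (at least 95% identity over 50% of the transcript). No libraries of a group agreed within sampling noise (chi-square per degree of freedom at least 71.3 in embryos and 21.1 in ESCs). Motifs were searched on both strands and may overlap.

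The genes, the lists of partners and markers and the rules were chosen with earlier results of these data known. By rule, full values go to up to 8 genes past the threshold by smallest p and to the most abundant gene per length of each complex, and each partner list is shown by up to 4 called genes, or by the gene with the smallest p. Values of other genes were given after they were seen. Alternatives were RLE scaling, no filter, DESeq2 1.42.0, a length offset (lowess span 0.3), leaving out mitochondrial genes, each library, or Klf5 siRNA embryos 2 and 4, and the replicate number as a block. Total-count scaling, adding near-identical copies, leaving out scramble embryos 5 and 6 and a crossed ESC pairing were chosen after seeing the data.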

Additional observations from a re-analysis of the deposited data

Results flagged for a closer look

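Dixon's test at its 95% level flags about 1 in 20 groups of normally distributed values. That rate may not hold here, since most groups were CPM not taken to a log scale. Values far from the rest of their group were sought by this test in 78 groups of values, and 12 were found. In Klf5 siRNA embryo 3 they were Timm23 at 3272 CPM (next highest 1748), Tomm22 at 475 CPM (next 386) and Tomm34 at 29.1 CPM (next 10.4). In Klf5 siRNA embryo 4 they were Timm17b at 393 CPM (next 267), Chchd3 at 143 CPM (next 80.2) and Tomm40l at 16.8 CPM (next 7.52). Klf5 siRNA embryo 2 held the top Tomm5 level, 1930 CPM (next 832), the top Tomm20l level, 11.6 CPM (next 3.92), and the largest share of mitochondrial genome counts of its group, 10.3% (next 5.30%). Timm21 stood at 48.6 CPM in Klf5 siRNA embryo 5 (next 14.7). Among scramble embryos, Tomm6 stood at 253 CPM in embryo 10 (next 164) and Tomm70a at 275 CPM in embryo 7 (next 200.4). All 12 are the highest of their group. No cause was tested.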

How the results depend on the processing

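With each embryo library left out in turn, 13 to 16 of the 33 genes were called (median 0.73 to 0.84), beside 2103 to 2470 over all genes. The 33 genes' median stayed above 0 in embryos under every alternative run. It was 0.57 with the length offset and 0.36 with total-count scaling, which sets the median of all genes 0.42 lower; the other alternatives gave 0.66 to 0.91. DESeq2, under which the median of all genes was 0.11 higher, called 19 family genes, 17 higher and 2 lower (Timm29 and Timm44). Over all genes it called 3445, 1927 higher and 1518 lower, beside 2447 with edgeR. For single genes in embryos, 827 of the alternative values kept their side of the threshold, 28 newly passed, 18 no longer passed and 18 changed sign while below the threshold in both; in ESCs the numbers were 392, 1, 0 and 23. Beside those in the report, calls that turned on 1 library were Chchd6, which passed without scramble 6 or 10 or Klf5 siRNA 2 or 3, Timm10, which passed without scramble 9 or 10 or Klf5 siRNA 4, Timm10b without Klf5 siRNA 1 and Tomm5 without Klf5 siRNA 4. Klf5 itself lost the threshold in embryos with the length offset (-0.74, adjusted p = 0.104), without Klf5 siRNA embryos 2 and 4 (-0.71, adjusted p = 0.131) and without Klf5 siRNA embryo 2, 3, 4 or 5 (range over left-out libraries -1.56 to -0.91).

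Same-numbered libraries did not deviate together (correlations -0.11 to 0.11 in embryos and -0.11 in ESCs), so the numbers are not taken to pair them; in embryos number 6 alone correlated best with its own number. With the replicate block the 12 embryos that share numbers gave 902 calls over all genes, 11 in the family and -1.40 for Klf5 (adjusted p = 0.0699), and the same 12 without the block gave 1423 calls, 13 in the family and -1.07 for Klf5 (adjusted p = 0.0963). In ESCs the block gave 155 calls and the crossed pairing 1475, none in the family.

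Calls over all genes in ESCs were 444, and 870 with no filter, 1435 with DESeq2, and 1 to 998 with a library left out (1 without GFP library 1, 169 without GFP library 2, 998 without Klf5 library 2), where a lone library is assumed to vary like the other group. DESeq2 called 1 family gene. The family's ESC median was 0.11 with no filter, 0.17 with total-count scaling and 0.038 (without GFP library 2) to 0.095 with a library left out. The cause of these changes was not tested. With 2 libraries a group, small differences in ESCs were not detectable.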

Other observations

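The spread among the 10 scramble embryos differed between genes of one complex. Timm9 and Tomm22 were the steadiest, with a coefficient of variation of 12.1% and 12.5%, and Chchd2 followed at 20.9%. Tomm40 (85.0%), Tomm40l (72.5%) and Timm50 (66.8%) varied most among genes whose scramble levels were never 0, and in all 3 scramble embryos 5 and 6 were the highest. Among Klf5 siRNA embryos Timm9 had a coefficient of variation of 67.4%, with 70.0 CPM in embryo 2 and 12.8 CPM in embryo 4, while Tomm22 (14.8%) and Chchd2 (14.6%) stayed narrow. These are values of single embryos, with no test between the groups' spreads.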
